A study of Mus musculus with 6 samples.

Results

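A microarray probeset is a group of short probes whose signals are summarised as 1 expression value, and some probesets list several genes because their probes match more than 1 near-identical copy or overlapping transcript. The probesets described here are those whose platform annotation lists at least 2 gene symbols, leaving out any that lists a symbol starting with Zscan4, Usp17l, Tdpoz, Spopfm, Pramel, Pramef, Tcstv, Obox, Rhox, Eif4a3l, Nat8, Hist or Snor. This rule kept 1508 of the 35556 probesets on the array, and no measured value entered it. The other probesets are 113 that list several symbols of those families, 21789 with a single symbol and 12146 with no listed symbol. The 1508 probesets carry 1933 distinct symbols in 769 distinct sets of symbols, and 8 of them list 1 symbol more than once.

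The arrays compare mouse embryonic stem (ES) cells sorted by a fluorescent reporter named 2C::tomato into a positive and a negative population, with 3 arrays of each. In the published description of this reporter, the red protein tdTomato is driven by the promoter of an endogenous retrovirus (MERVL) that is active in the 2-cell embryo, so that positive cells are those with an active reporter. Every sample title gives the genotype as WT, every sample was grown on gelatin in a serum-replacement ES cell medium (ES-KOSR), and the shared protocol mentions vehicle or 4OHT (an inducer used there to delete Kdm1a) without assigning either to a sample. Passage number and clone are not stated. Samples carry the replicate numbers 1 to 3 in both groups, and the differences below are positive minus negative within the same number, called pairs 1, 2 and 3. The labels do not say whether the numbers mark separate cultures, so a p-value here reflects only how far these arrays scatter, and that scatter may be technical.

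Mouse ES cell cultures contain a rare and transient population that transcribes genes otherwise active at the 2-cell stage, when the embryo starts its own transcription. Many of these genes are multicopy genes that lie in tandem clusters, several are driven by MERVL repeats, and the homeobox factor Dux is known to switch many of them on. Near-identical tandem copies are difficult for short probes to separate, which is why an array probeset can stand for a whole cluster rather than for a gene.

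The start-site sequences of some of these genes show how alike, or unlike, the genes listed on 1 probeset can be. The sequences are RefSeq's, on build GRCm38.p6, and run 5′ to 3′ from 250 bases before to 50 bases after the first listed start of each gene. RefSeq's promoter table held a window for 36 of the 50 symbols on the probesets that were at least 2-fold higher in the positive arrays and higher in every pair. Gm21304 and Sp110 are shown because their windows, from different gene groups on different chromosomes, share an exact run of 100 bases, given in capitals. Gm4301 is shown because it is listed on the same probesets as Gm21304 but differs from it in the window at its listed start. Gm11569 and Krtap4-13, and Apol7b and Apol7e, are shown as near-identical copies. In Gm428, Gm11569 and Krtap4-13, capitals mark the letters TATAAA on either strand.
Gm21304, chr10:104168265-104168564, plus strand: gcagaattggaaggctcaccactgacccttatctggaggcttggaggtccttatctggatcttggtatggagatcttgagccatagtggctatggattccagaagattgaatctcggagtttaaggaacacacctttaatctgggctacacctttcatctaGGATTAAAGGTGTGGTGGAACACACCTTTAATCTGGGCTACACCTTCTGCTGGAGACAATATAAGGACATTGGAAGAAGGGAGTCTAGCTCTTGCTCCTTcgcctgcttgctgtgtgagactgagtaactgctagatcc
Sp110, chr1:85603842-85604141, minus strand: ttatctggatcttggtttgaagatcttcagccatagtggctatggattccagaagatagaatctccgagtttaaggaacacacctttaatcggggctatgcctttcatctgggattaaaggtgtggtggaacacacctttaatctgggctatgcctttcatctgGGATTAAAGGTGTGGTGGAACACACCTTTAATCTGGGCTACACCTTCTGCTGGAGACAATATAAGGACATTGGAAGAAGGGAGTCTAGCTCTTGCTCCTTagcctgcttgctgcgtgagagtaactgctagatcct
Gm4301, chr10:100335426-100335725, plus strand: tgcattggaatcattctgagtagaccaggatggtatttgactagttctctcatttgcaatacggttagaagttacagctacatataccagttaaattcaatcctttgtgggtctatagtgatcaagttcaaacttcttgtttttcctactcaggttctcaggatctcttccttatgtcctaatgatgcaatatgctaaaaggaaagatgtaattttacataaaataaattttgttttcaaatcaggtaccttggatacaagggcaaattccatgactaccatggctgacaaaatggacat
Gm428, chr4:73683264-73683563, plus strand: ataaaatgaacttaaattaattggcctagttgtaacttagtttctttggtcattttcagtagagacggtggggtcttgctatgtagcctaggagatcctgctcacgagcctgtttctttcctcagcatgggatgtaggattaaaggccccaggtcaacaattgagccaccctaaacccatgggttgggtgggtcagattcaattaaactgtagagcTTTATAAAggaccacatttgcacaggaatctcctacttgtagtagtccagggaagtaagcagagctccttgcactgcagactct
Gm11569, chr11:99798883-99799182, minus strand: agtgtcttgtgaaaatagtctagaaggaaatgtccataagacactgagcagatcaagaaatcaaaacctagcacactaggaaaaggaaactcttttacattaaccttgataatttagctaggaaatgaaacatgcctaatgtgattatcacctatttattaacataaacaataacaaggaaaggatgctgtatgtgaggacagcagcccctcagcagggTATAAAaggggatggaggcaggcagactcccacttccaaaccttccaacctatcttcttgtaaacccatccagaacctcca
Krtap4-13, chr11:99809847-99810146, minus strand: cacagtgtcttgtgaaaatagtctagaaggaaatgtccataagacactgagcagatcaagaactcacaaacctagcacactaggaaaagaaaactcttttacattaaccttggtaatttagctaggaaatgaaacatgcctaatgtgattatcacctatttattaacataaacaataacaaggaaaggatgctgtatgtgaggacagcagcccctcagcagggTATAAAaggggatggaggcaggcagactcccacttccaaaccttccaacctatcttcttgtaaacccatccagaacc
Apol7b, chr15:77447411-77447710, minus strand: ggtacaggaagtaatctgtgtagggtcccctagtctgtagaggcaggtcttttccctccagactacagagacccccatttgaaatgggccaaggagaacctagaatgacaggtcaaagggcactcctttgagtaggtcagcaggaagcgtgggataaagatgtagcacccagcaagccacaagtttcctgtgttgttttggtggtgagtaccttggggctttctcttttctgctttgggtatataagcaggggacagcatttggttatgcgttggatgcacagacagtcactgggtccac
Apol7e, chr15:77698639-77698938, plus strand: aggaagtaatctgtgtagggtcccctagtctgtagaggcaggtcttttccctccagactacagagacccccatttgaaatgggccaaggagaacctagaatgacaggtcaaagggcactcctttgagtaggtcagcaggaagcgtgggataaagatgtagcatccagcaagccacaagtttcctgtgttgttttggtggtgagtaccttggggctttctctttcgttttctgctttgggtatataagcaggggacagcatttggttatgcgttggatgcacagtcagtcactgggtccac

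Aligned over their full length, the Gm21304 and Sp110 windows were 73.3% identical. The shared run of 100 bases occurred in 7 windows of the 32851 in the table (0.0213%), on either strand. The 7 windows belonged to Gm20765, Gm21293, Gm21304, Gm21312, Gm4340, Gm8764 and Sp110. The windows of Gm21304 and Gm4301 were 46.3% identical, whereas those of Krtap4-13 and Gm11569 were 96.3% identical and those of Apol7b and Apol7e 96.0% identical. Windows of Gtf3c2 and Mpv17, which are neighbours and not copies, were 48.0% identical, so a value near this level is not read as partial likeness. The letters TATAAA occurred on either strand in 8 of the 36 windows (22.2%), against 13.6% of all windows. These were the windows of Gal3st2c, of the like copies Gm13871, Gm11758, Gm11487 and Gm428, and of the near-identical Gm11554, Gm11569 and Krtap4-13. Copies are thus counted several times, so the windows are not separate observations, and the share was not tested. A match is a description of these letters in these windows only, and the table says nothing of sequence farther from the start.

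Across all probesets the arrays were alike in level. The median log2 value per array lay between 6.95 and 7.04, and the correlation between arrays lay between 0.961 and 0.992. A list of 10 ES cell genes was at similar levels in all arrays, with means of 11.76 to 12.21 on the log2 scale. All 16 measured genes of a list of 2-cell-state genes were at least 2-fold higher in the positive arrays, with list means of 5.85, 5.92 and 6.24 in negative arrays 1 to 3 and 8.46, 11.28 and 7.41 in positive arrays 1 to 3. Some of the listed genes were chosen from earlier results of these data, so this count was partly fixed in advance. Gm5662, on that list, is also a symbol of probesets described below. Of 12 fibroblast feeder genes, 5 were higher and 7 lower (median difference -0.28), with list means of 8.04 to 8.61 in negative and 7.68 to 8.52 in positive arrays. The medians for 10 primitive endoderm and 9 trophectoderm genes were -0.32 and -0.08. No probeset of the series passed limma's test at an adjusted p of 0.05 (percent called 0). The smallest adjusted p was 0.875, or 0.489 with the replicate number as a block, and at an unadjusted p of 0.05 limma had 1175 probesets higher (3.3%) and 771 lower (2.17%).

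As a whole, the 1508 multi-symbol probesets were near-equal in the sorted populations, and a small number stood far higher in the positive cells. The median difference over them was -0.012 on the log2 scale, with medians of 0.023, 0.026 and -0.022 for pairs 1 to 3, while the median over all probesets was -0.026. For 1463 of them the mean difference was smaller than 2-fold in either direction. At least 2-fold higher values were found for 45 of the 1508 (2.98%, against 1.14% of all probesets), and 0 were at least 2-fold lower (0.0169% of all probesets). Higher in every pair as well were 34 of these 45 (2.25% of the members, against 1.04% of all probesets). By sign alone, 294 were higher in all 3 pairs (19.5%, against 16.5% of all probesets) and 240 were lower in all 3 pairs (15.9%, against 21% of all probesets). Groups without overlap were seen for 69 members in the higher direction (4.58%, against 5.46%) and for 39 in the lower direction (2.59%, against 6.28%). With each array centred on its own median, the 39 became 74, and a second quantile normalization gave 72, so the split of 69 higher to 39 lower depends on the scaling. The second quantile normalization also turned the split of 294 higher to 240 lower in all pairs into 217 higher to 270 lower.

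At an unadjusted limma p of 0.05, 40 members were higher (2.65%, against 3.3% of all probesets) and 11 lower (0.729%, against 2.17%), and 0 passed after Benjamini-Hochberg adjustment over all 35556 probesets. With the replicate number as a block these were 64 higher (4.24%, against 5.64% of all probesets) and 29 lower (1.92%, against 4.44%). The differences below are therefore given as sizes with their standard errors (SE, from limma), and the adjusted p from limma was 0.875 for every one of the 15 named probesets in the 2-fold set. The members are not independent: 1006 of them have the same set of symbols as another member, and 205 have the same value as another member in all 6 arrays. Counted by symbols, the 34 probesets are 15 sets, which join into 11 gene groups through shared symbols. Keeping 1 probeset per set of symbols, that with the highest mean level, left 13 of the 34 and 20 of the 45.

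**Figure D1:**
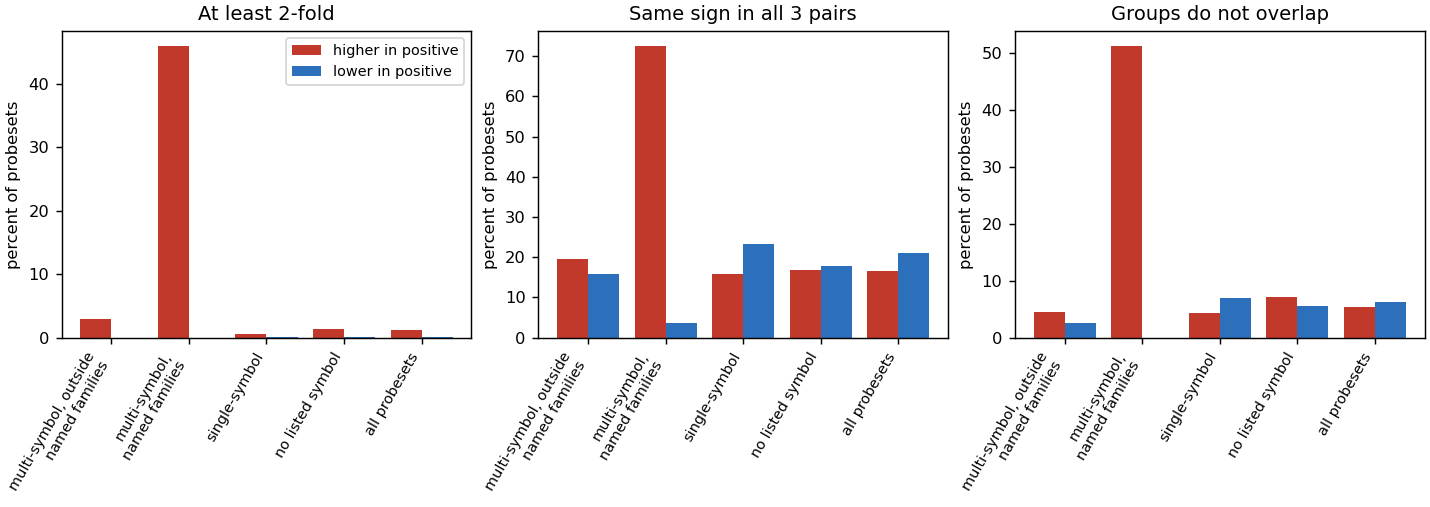
Percent of probesets in 5 classes of the array that were at least 2-fold different (left), of the same sign in all 3 pairs (middle) or without overlap between the groups (right), with red bars for higher and blue bars for lower in positive arrays. The multi-symbol probesets outside the named families reach 2.98% at 2-fold, against 1.14% over all probesets, and 2.59% lower without overlap, against 6.28%.

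The 34 probesets followed the reporter arrays in a common order. Their median level was 6.01, 5.74 and 6.78 in negative arrays 1, 2 and 3, and 8.77, 11.81 and 7.48 in positive arrays 1, 2 and 3. Positive array 2 was thus the highest and positive array 3 the lowest of the sorted-positive samples, and 32 of the 34 probesets had that order. The 2-cell-state list had the same order over the positive arrays, and its part in the result was not tested. Taken pair by pair, the median difference was 2.27, 5.96 and 0.66, and 30, 33 and 6 of the 34 were at least 2-fold higher in pairs 1, 2 and 3. In 30 of the 34 the groups did not overlap, against 5.46% of all probesets. The 34 were chosen from these same values, so the counts by pair and without overlap partly follow from that choice. They stand for 15 sets of symbols and are not separate observations. Because whole sorted populations were hybridised, a larger share of cells in the state and more RNA per cell cannot be told apart.

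Leaving out positive array 2 kept 27 of these 34 probesets, and leaving out both arrays of replicate 2 kept 26. Without positive array 3 the count was 58, and without negative array 3 it was 55, with all 34 among them each time. Of the 15 named probesets, 11 were still at least 2-fold higher without positive array 2 (lowest difference 0.54) and 11 without both arrays of replicate 2 (lowest 0.24).

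**Figure D2:**
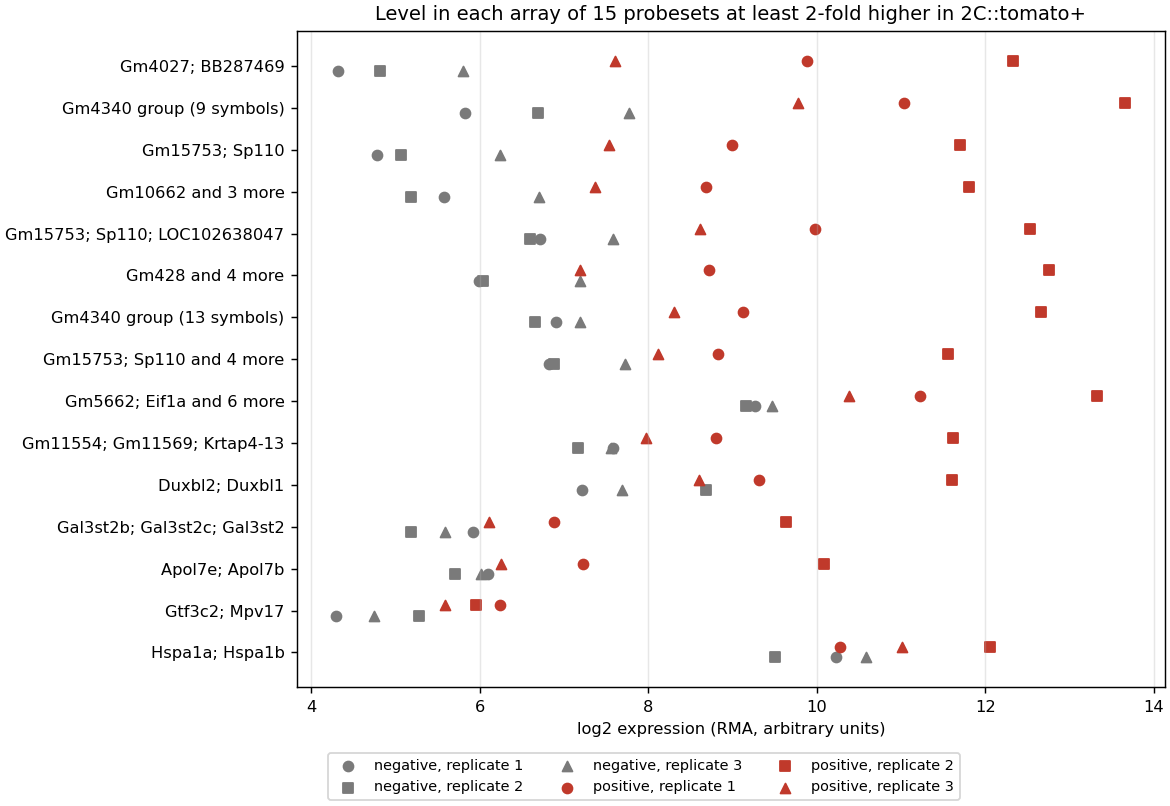
Log2 expression in each of the 6 arrays for the 15 named probesets that were at least 2-fold higher in positive arrays and higher in every pair, with grey points for negative and red points for positive arrays and a marker shape for each replicate number. Positive array 2 (red squares) is the highest point in all probesets except Gtf3c2; Mpv17, and positive array 3 (red triangles) lies nearest to the negative arrays in most.

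The largest difference belonged to genes listed with Eif1a, which encodes a translation initiation factor that helps the small ribosomal subunit find the start codon. Probeset 10397551 lists Gm4027 and BB287469, both on chromosome 12. Its log2 level was 4.32, 4.82 and 5.80 in negative arrays 1 to 3 and 9.89, 12.33 and 7.60 in positive arrays 1 to 3. All positive arrays were above all negative arrays. The mean difference was 4.96 (SE 1.13), a 31.1-fold higher level, made up of 5.56, 7.51 and 1.80 in pairs 1 to 3.

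The same genes appear with Gm21319, Gm2022, Gm8300, Gm5662, Gm5039 and Eif1a on 4 further probesets, all in the 2-fold set, with mean differences of 1.66 to 2.34. The largest of these, 10401822, was at 9.27, 9.16 and 9.47 in negative arrays and 11.22, 13.32 and 10.38 in positive arrays, again without overlap, and differed by 2.34 (SE 0.70). Probesets that list a single gene of this set separate the copies from the namesake. The Eif1a probeset itself, for the gene on another chromosome, differed by -0.12 (SE 0.18), with values within 0.16 of each other in every pair. The Gm5662 probeset differed by 5.34 (SE 1.07), and the Gm5039 probeset by 1.88 (SE 0.97). The array's own Eif1a probeset was thus slightly lower in each positive array than in its pair, unlike the probesets it shares with the chromosome 12 copies.

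Predicted genes of chromosome 10 came next. Probeset 10366180 lists 9 of them, Gm21312, Gm21304, Gm21293, Gm4340, Gm4312, Gm4301, Gm8764, Gm20765 and Gm6763. Its level was 5.83, 6.69 and 7.77 in negative arrays and 11.03, 13.66 and 9.78 in positive arrays. Every positive array stood above every negative array, and the mean difference was 4.73 (SE 1.01), or 26.5-fold. Probeset 10366070 adds Gm4307, Gm4305, Gm4303 and Gm4302, to 13 symbols. It was at 6.91, 6.66 and 7.19 in negative arrays and 9.13, 12.66 and 8.31 in positive arrays, a difference of 3.11 (SE 1.06) without overlap. In the RefSeq gene order they form separate clusters on chromosome 10, with Gm4301 to Gm4312 in one and Gm21293 to Gm4340 in the other. The copies with Gm21304-like windows, such as Gm21312 and Gm4340, had identities up to 100%. Across the Gm21304-like and Gm4301-like windows printed above identity was 46.3%, so these probesets list genes whose listed start windows differ. Where transcription of these predicted genes starts was not measured.

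Probesets of the Sp100 family made up 4 of the 34. Sp110 encodes a nuclear body protein of this family, whose members bind chromatin and respond to interferon, and Gm15753 is a pseudogene on chromosome 5 listed with it. Probeset 10347928 lists Gm15753 and Sp110, and its values are the same as those of the other probeset with this pair of symbols. It was at 4.78, 5.07 and 6.24 in negative arrays and 8.99, 11.70 and 7.53 in positive arrays. The groups did not overlap, and the mean difference was 4.05 (SE 1.03), or 16.5-fold.

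Probesets that list further symbols beside Sp110 gave smaller differences. Probeset 10534909, which adds LOC102638047, differed by 3.41 (SE 0.94), and 10356278, which also adds LOC100041057, LOC664787 and C130026I21Rik, by 2.36 (SE 0.87). Both were free of overlap. A further pair of probesets was at least 2-fold higher but not in every pair, and they are named here after their values were seen. The first, 10582868, without LOC100041057, differed by 1.49 (SE 0.71), with -0.25 in pair 3, and the second, 10347933, which lists Sp140, by 1.47 (SE 0.77), with -0.24 in pair 3. Of the 13 Sp100-family members, 6 were at least 2-fold higher and 1 was lower in all 3 pairs. The window of Sp110 carries the 100-base run shared with the chromosome 10 genes, as shown above.

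The set with the most probesets names Gm10662, Gm4567, Gm6902 and Gm5891, predicted genes on chromosome 7 among vomeronasal receptor genes. All 10 probesets of this set were in the 2-fold set, with mean differences of 3.09 to 3.46. The largest, 10560760, was at 5.58, 5.18 and 6.70 in negative arrays and 8.68, 11.81 and 7.37 in positive arrays. The arrays did not overlap, and the mean difference was 3.46 (SE 1.10). These 10 probesets measure the same 4 copies and are not 10 separate observations.

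Predicted genes on chromosome 4, Gm11238, Gm13871, Gm11758, Gm11487 and Gm428, show how little pair 3 can carry. Probeset 10505543 was at 5.99, 6.04 and 7.19 in negative arrays and 8.72, 12.76 and 7.19 in positive arrays. Positive array 3 was level with negative array 3, so the groups touched. The mean difference was 3.15 (SE 1.35), made up of 2.73, 6.72 and 0.00 in pairs 1 to 3. The 5 probesets of this set differed by 3.12 to 3.15, yet only 2 were higher in every pair, because the others were slightly below 0 in pair 3, as in probeset 10505556 with -0.09. The single-symbol Gm11487 probeset differed by 0.96 (SE 0.72) and was higher by 2.89 in pair 2 but by 0.02 and -0.03 in the others.

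Homeobox genes of the Dux kind were listed on 2 sets. Duxbl1 and Duxbl2 encode DNA-binding proteins with a tandem homeodomain and lie on chromosome 14. Probeset 10413255 was at 7.21, 8.68 and 7.69 in negative arrays and 9.31, 11.61 and 8.60 in positive arrays. Negative array 2 (8.68) was above positive array 3 (8.60), so the groups overlapped although each pair was higher. The mean difference was 1.98 (SE 0.80), and the 3 probesets of the set differed by 1.89 to 1.98.

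Duxf3, the Dux gene of the mouse known as an activator of 2-cell-stage genes, is listed with Gm9919 on 3 probesets, named here after their values were seen. Probeset 10369221 was at 7.55, 7.05 and 7.48 in negative arrays and 8.02, 10.99 and 7.45 in positive arrays. Only positive array 2 stood far from the rest. The mean difference was 1.46 (SE 0.88), with 0.47, 3.93 and -0.03 in pairs 1 to 3, and the probeset of Gm9919 alone differed by -0.10 (SE 0.11).

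Genes of structural proteins, enzymes and apolipoproteins formed smaller sets. Krtap4-13 encodes a keratin-associated protein of the hair shaft, and with its neighbours Gm11554 and Gm11569 on chromosome 11 it is listed on 2 probesets that differed by 1.92 and 2.03. Probeset 10390939 was at 7.58, 7.17 and 7.56 in negative arrays and 8.81, 11.62 and 7.97 in positive arrays, a difference of 2.03 (SE 0.88). The positive arrays were all higher. Among the 15 members with keratin or keratin-associated symbols, these 2 were the only ones at least 2-fold higher, and the median over the 15 was -0.118.

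Gal3st2, Gal3st2b and Gal3st2c on chromosome 1 encode sulfotransferases that act on galactose of glycans. Probeset 10348902 was at 5.92, 5.19 and 5.59 in negative arrays and 6.88, 9.64 and 6.11 in positive arrays, without overlap. The mean difference was 1.98 (SE 0.87). The second probeset of the set differed by 1.35, and the probeset of Gal3st2c alone differed by -0.03 (SE 0.25). Start windows of these 3 genes were at most 44.7% identical, although the array lists them together.

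Apol7b and Apol7e encode apolipoprotein L family proteins, of a chromosome 15 cluster. Probeset 10425040 was at 6.10, 5.71 and 6.01 in negative arrays and 7.23, 10.09 and 6.25 in positive arrays. The lowest positive array (6.25) was just above the highest negative array (6.10). The mean difference was 1.92 (SE 0.92), and the other probeset of the set differed by 1.83. The 4 members with Apol symbols also include 2, of another set of symbols, that were lower in all 3 pairs (lowest difference -0.18).

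A final pair of probesets lay nearest the 2-fold threshold and departed from the common pattern. Gtf3c2 encodes a subunit of a general factor for RNA polymerase III, and Mpv17 a mitochondrial inner membrane protein, and the genes are neighbours rather than copies, with windows 48.0% identical. Probeset 10529091 was at 4.30, 5.28 and 4.75 in negative arrays and 6.24, 5.96 and 5.59 in positive arrays. Here pair 1 was the largest, with 1.94, 0.68 and 0.84 in pairs 1 to 3, and the difference of 1.15 (SE 0.28) had the smallest SE of the 15. The other probeset with these symbols differed by -0.04, and the probeset of Mpv17 alone by 0.16 (SE 0.27).

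Hspa1a and Hspa1b encode the heat-inducible form of the Hsp70 chaperone and are adjacent copies with windows 98.7% identical. Probeset 10450367 was at 10.23, 9.50 and 10.59 in negative arrays and 10.27, 12.06 and 11.01 in positive arrays, with overlap. The difference was 1.01 (SE 0.49), made up of 0.04, 2.56 and 0.43, and the probeset of Hspa1a alone differed by 1.05 (SE 0.44). Just outside the threshold lay 2 probesets of the Fthl17 genes (ferritin heavy chain-like, on the X chromosome), with 0.93 and 0.99, and a set with Gm17026 and BC061237, with 0.98.

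**Figure D3:**
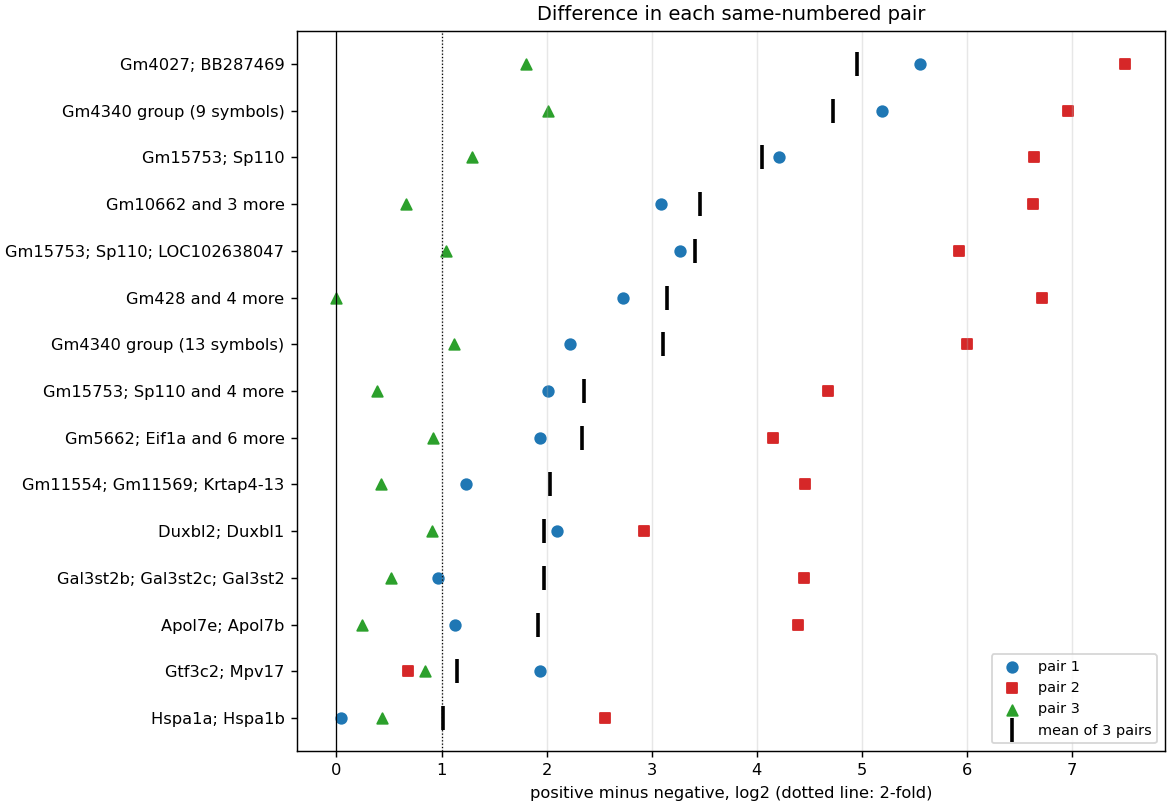
Positive minus negative difference (log2) in pairs 1, 2 and 3 for the same 15 probesets, with a black bar at the mean of the pairs and a dotted line at 2-fold. Pair 2 is the largest in all except Gtf3c2; Mpv17, up to 7.51 for Gm4027; BB287469, and pair 3 lies between 0.00 and 2.01.

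Further members were at least 2-fold higher on average but lower in pair 3, and are named after their values were seen. A probeset of Speer genes, a rodent testis-expressed family (Gm30417, Speer4cos and Speer8-ps1), differed by 1.52, 4.83 and -0.77 in pairs 1 to 3, with a mean of 1.86 (SE 0.96). It was the only one of 18 members with Speer symbols that was at least 2-fold higher. Of the 18, 0 were higher in all 3 pairs and 0 lower (against 16.5% and 21% of all probesets), and their median was -0.106. An olfactory receptor probeset (Olfr331, Olfr329, Olfr330, Olfr328, Olfr325 and Olfr224) differed by 0.84, 3.65 and -0.34, with a mean of 1.38 (SE 0.74). The other probeset of this set differed by 0.88, and single-symbol probesets of Olfr224, Olfr325, Olfr328 and Olfr330 by 0.21 to 0.59. A probeset of predicted genes on chromosome 14 (Gm17026, Gm10375, Gm10377 and 1700001F09Rik) differed by 1.18, 3.23 and -0.95, with a mean of 1.15 (SE 0.73). This mean became -0.03 when limma weighted the arrays by their quality. The other probeset with these symbols differed by 0.50. In all, 11 such probesets from 7 sets of symbols were counted.

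At least 1 Gm symbol was listed on 25 of the 34, from 10 sets of symbols, while 678 of all 1508 members (45%) list one, and 15 listed nothing but Gm, Rik, LOC or accession-like names. By number of symbols, the share in the 2-fold set was 1.41% of 707 members with 2 symbols, 3.41% of 499 with 3 to 5 symbols and 2.32% of 302 with 6 or more. In the RefSeq gene table, all genes of 11 of the 15 sets lay on 1 chromosome (73.3%), against 76.8% of the 747 other sets with at least 2 genes in that table. At least 2 genes of a set lay within 10 genes of each other in 12 of the 15 (80%), against 70.4% of those others. Start windows of at least 90% identity were found in 6 of the 12 sets with 2 or more windows (50%), against 36.8% of 465 other sets. These shares of a few sets are descriptions and were not tested.

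Falls were small beside these differences. The 8 largest among members lower in every pair reached from -0.41 to -0.58 on the log2 scale, and limma's adjusted p was at least 0.875 for each. The largest was for Vmn2r86 and Vmn2r87, pheromone receptors of the vomeronasal organ, at 4.46, 4.24 and 5.15 in negative arrays and 4.34, 3.75 and 4.03 in positive arrays, a difference of -0.58 (SE 0.27) with overlap. Cers1 (a ceramide synthase) and Gdf1 (a TGF-beta family ligand), which share a transcript, were at 8.01, 8.76 and 8.10 against 7.62, 7.91 and 7.78, a difference of -0.52 (SE 0.22) without overlap. Tdg, a DNA glycosylase that removes mispaired thymine and oxidised 5-methylcytosine, is listed with its pseudogene Tdg-ps2 on 4 probesets, which differed by -0.44 to -0.38. The probeset with the largest of these differences was at 10.56, 10.59 and 10.50 in negative arrays and 10.31, 9.74 and 10.29 in positive arrays, and again no arrays overlapped.

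The other falls were of mixed kinds. Zxda and Zxdb, X-linked zinc finger genes, differed by -0.48 (SE 0.36), and H2-Q1 with H2-Bl, of the major histocompatibility complex class I, by -0.43 (SE 0.17). Olfr1510 with Olfr1511, olfactory receptors, differed by -0.41 (SE 0.17). A set of 6 predicted genes led by Gm35427 differed by -0.46 (SE 0.44), mostly from pair 3 (-1.25), and by 0.00 without negative array 3.

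Among members that name a microRNA, the largest difference was for Mir351 with its host gene C430049B03Rik on the X chromosome. The probeset was at 7.24, 6.94 and 7.10 in negative arrays and 6.62, 6.68 and 6.62 in positive arrays. No positive array reached a negative array, and the difference was -0.45 (SE 0.12). Mir322 and Mir503 lie in the same host transcript, and they were named because of this shared host. The Mir322 probeset differed by -0.10 (SE 0.11) and that of Mir503 by -0.23 (SE 0.17), the latter with 0.13 in pair 2. A microRNA probeset on this array can report the precursor or the host transcript, and mature microRNA levels were not measured. The mature sequences from RefSeq (build GRCm38.p6) are shown 5′ to 3′ with the seed, bases 2 to 8, in capitals, to compare the seeds. Those of miR-322-5p and miR-503-5p differ only in the last base of the seed, whereas that of miR-351-5p is unlike both.
mmu-miR-351-5p, chrX:53053315-53053338, minus strand: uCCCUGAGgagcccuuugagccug
mmu-miR-322-5p, chrX:53054306-53054327, minus strand: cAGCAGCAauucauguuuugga
mmu-miR-503-5p, chrX:53054027-53054049, minus strand: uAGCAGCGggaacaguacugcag

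Families with many members gave small differences in either direction. The 1508 members named 384 families or symbol stems, 13 of which had a probeset in the 2-fold set. Of the 27 families with 10 or more members, 21 had none. A member can count in more than 1 family, and members of a family share symbols, so their counts are descriptions.

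Zinc finger genes encode DNA-binding proteins, many of them repressors of repeats. Of the 40 members with a symbol starting with Zfp, Zscan, Zkscan, Zik, Znf, Rex or Zbtb, which leaves out Zxda and Zxdb above, 25 were higher in all 3 pairs (62.5%, against 16.5% of all probesets) and 0 lower, and the median difference was 0.143. With a second quantile normalization 19 were higher (47.5%, against 13.7%) and the median was 0.102. Most of these counts came from symbols between Zfp900 and Zfp999, which 27 of the 40 members name and of which 21 were higher in all pairs, against 4 of the other 13. The largest was Zfp950 with Arid4b, with 0.61 (SE 0.27), at 7.92, 8.23 and 8.28 against 8.36, 9.33 and 8.56. Gm3912, Zfp772 and Gm45351, named after their values were seen, were at 6.87, 6.84 and 6.95 against 7.34, 7.67 and 7.29, a difference of 0.55 (SE 0.13) without overlap.

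Ribosomal protein genes, many listed with a processed copy, gave 63 of 234 higher in all pairs (26.9%, against 16.5% of all probesets) and 5 lower (2.14%, against 21%), with a median of 0.023. With a second quantile normalization, that median was -0.003, with 39 higher (16.7%, against 13.7%) and 26 lower (11.1%, against 24.6%), so no direction is given. The largest difference was 0.43 (SE 0.14), for Gm15421 and Rpl22l1, with all positive arrays above all negative arrays. Members named with Hmgb genes, which encode DNA-bending chromatin proteins, also depended on the scaling. In all pairs 15 of 34 were higher (44.1%, against 16.5% of all probesets) and 2 lower (5.88%, against 21%). With the second quantile normalization 8 were higher (23.5%, against 13.7%) and 11 lower (32.4%, against 24.6%). The largest, for Gm5176 and Hmgb1, was 0.50 (SE 0.14).

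Members with a symbol of H followed by a digit, which the rule kept, numbered 47. This class was meant for core and variant histone genes under their newer symbols (H2ac, H2al, H2bc, H3c, H4c and related). It goes by the leading letter only, so another gene with a symbol of that form would be counted too. In all pairs 24 were lower (51.1%, against 21% of all probesets) and 9 higher (19.1%, against 16.5%), with a median of -0.046. With the second quantile normalization 14 were lower (29.8%), near the 24.6% of all probesets, and 3 higher (6.38%, against 13.7%). The largest was -0.31 (SE 0.19), for the testis histone genes H2al2b and H2al2c. Probesets listing Gapdh, a glycolytic enzyme with many pseudogenes, were lower in all pairs in 24 of 25 (96%, against 21% of all probesets). The differences were only 0.04 to 0.08 in size on the log2 scale, less than the SE of about 0.1 for the named ones. With the second quantile normalization 16 were lower in all pairs (64%, against 24.6% of all probesets), and the median moved from -0.064 to -0.026. The 25 probesets carry 5 sets of overlapping symbols.

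Receptor families of immune and sensory cells had medians below 0 (all probesets -0.026), which for the sensory ones came mainly from pair 3. Of 38 members with T cell receptor alpha variable genes (Trav), 18 were lower (47.4%, against 21% of all probesets) and 0 higher (against 16.5%) in all pairs. Their median was -0.155, with -0.212, -0.002 and -0.225 in pairs 1 to 3, and this median was -0.197 with the second quantile normalization. Olfactory receptors were lower in all pairs in 24 of 100, near the 21% of all probesets, and higher in 5 (5%, against 16.5%). Their median was -0.097, with -0.046, 0.025 and -0.273 in pairs 1 to 3. Vomeronasal receptors were lower in all pairs in 6 of 66 (9.09%) and higher in 3 (4.55%), both below the shares over all probesets. Their median was -0.092, with 0.107, 0.119 and -0.488 in pairs 1 to 3. Among the 57 members with microRNA genes, 7 were lower (12.3%) and 4 higher (7.02%) in all pairs, also below those shares. In 95 members of X- and Y-linked testis families 17 were lower (17.9%) and 14 higher (14.7%), near those shares.

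**Figure D4:**
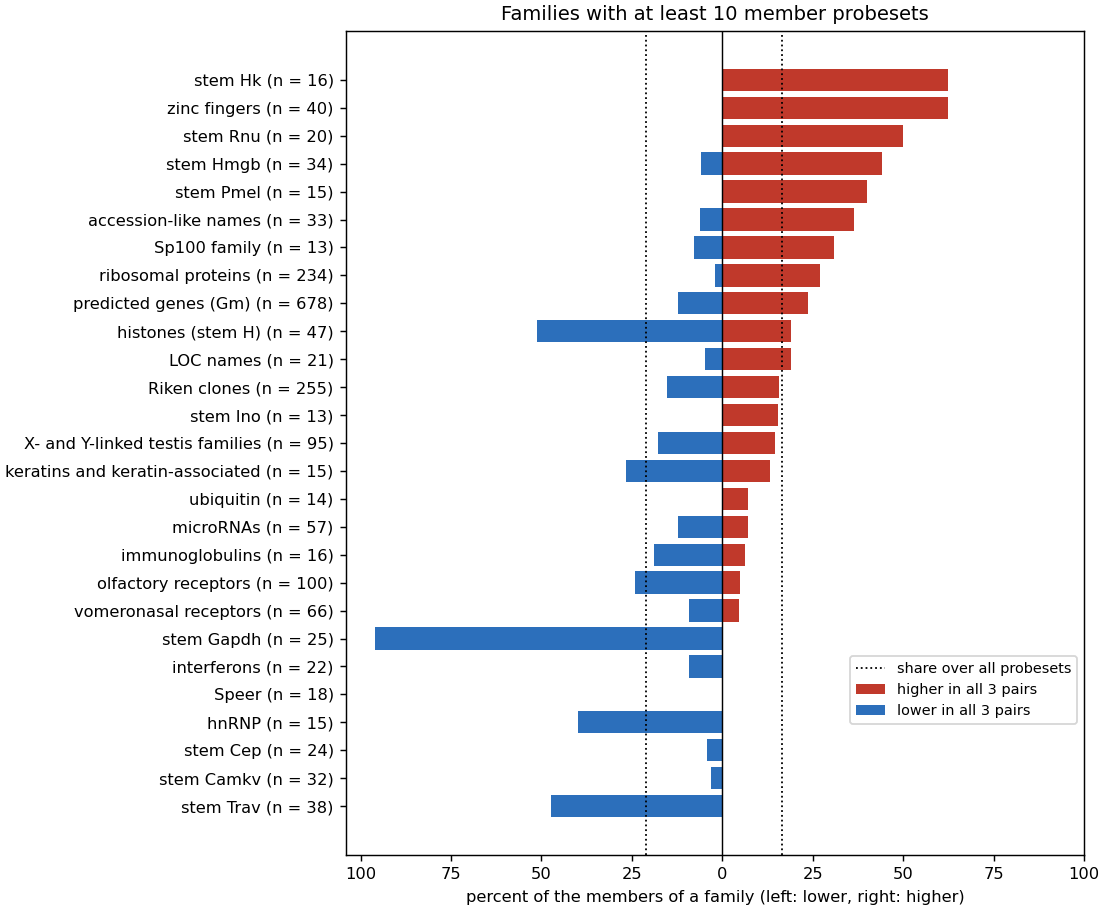
Share of the members of each family with at least 10 members that were lower (blue, left) or higher (red, right) in all 3 pairs, with dotted lines at the shares over all probesets (21% lower and 16.5% higher). Zinc fingers reach 62.5% on the right and Gapdh 96% on the left (47.5% and 64% with a second quantile normalization), and a stem is the leading letters of a symbol, so that stems such as Hk, Camkv, Cep, Pmel and Ino stand for 2 or 3 sets of symbols.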

How the data were processed

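Total RNA (100 ng) from sorted mouse ES cells was labelled for whole-transcript Affymetrix arrays, per the labels' protocols. The deposited values are log2 expression per probeset, made by the authors with RMA in Affymetrix Expression Console, per the submitters' processing notes; no version and no genome build is named there. Precision is limited by there being 3 arrays a group. Symbols come from GEO's platform annotation, which can be old. RefSeq GRCm38.p6 gave gene order and start windows: 1921 of the 1933 symbols matched its gene table and 1368 its promoter table.

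Positive and negative arrays (3 each) were compared with limma 3.58.1 (R 4.3.3) over all 35556 probesets, with no filter, so all 1508 members were tested, and Benjamini-Hochberg adjustment. The code was tested on simulated data with a capped spread and no pairing. That test does not cover the wide scatter of most 2-fold higher probesets over the positive arrays. Deviations from the group means correlated within the same number by 0.41, 0.389 and 0.18 (numbers 1, 2 and 3). Across different numbers the correlations lay between -0.376 and 0.124, and the 0.124, for positive 3 with negative 1, is near the 0.18. The numbers were taken to pair the samples, from the data and not from the labels, least firmly for number 3. Fits with the number as a block, without each array, without both arrays of replicate 2, with other scalings, array weights, a filter on the dimmest 30% or 1 probeset per set of symbols are alternatives.

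Named probesets are those at least 2-fold higher and higher in all pairs (up to 30, 1 per set of symbols), the 8 largest falls among those lower in all pairs, the 4 with the highest mean and, per family of 10 or more, the largest difference. The 4 with the highest mean were a probeset of Cdk8 and Rn28s1, with a difference of 0.10, and 3 of Gapdh sets, with -0.07 to -0.05. Members, families and lists were chosen with earlier results of these data known.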

Additional observations from a re-analysis of the deposited data

How the results depend on the processing

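No member passed limma's test under any setting, and fitting the replicate number as a block changed no call: 0 members passed, with a smallest adjusted p of 0.489 over the paired fit. Leaving out 1 array at a time gave ranges of 30 to 58 members at least 2-fold higher, 27 to 58 higher in every remaining pair as well, 377 to 526 higher and 343 to 481 lower in all pairs, 105 to 201 higher and 68 to 278 lower without overlap, and a median difference of -0.032 to 0.045. Such counts over 2 pairs or fewer arrays are met more easily by construction. Without both arrays of replicate 2, 29 members were at least 2-fold higher, 474 were higher and 481 lower in all pairs, and 242 were higher and 339 lower without overlap. Median centring gave 74 and a second quantile normalization 72 members lower without overlap. With 1 probeset per set of symbols (769 members), 20 were at least 2-fold higher, 13 also in every pair, 130 were higher and 129 lower in all pairs, and 39 were higher and 23 lower without overlap. With 1 probeset per profile of values, a setting chosen after seeing the data, 27 were at least 2-fold higher and higher in every pair; the count of these probesets was itself added after seeing the data.

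Single probesets changed sign in 4 cases: the set led by Gm35427 (0.00) and Camkv with Rpl21 (0.01) without negative replicate 3 (-0.87 and -0.10 at the other end of leaving out 1 array), Ubap1 with Cep41 (-0.08) without positive replicate 2 (0.27 at the other end), and the Gm17026 set (-0.03) with array weights. The causes were not tested. With 3 arrays a group, and pairs as different as 0.66 and 5.96 in their medians, an adjusted p that misses the threshold does not show equal levels. Probe sequences were not used here, so probes shared between probesets could not be counted.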

Other observations

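Other members were higher without overlap at less than 2-fold, and the Trim43 and Ttc30 probesets below are named after their values were seen. There were 39 such probesets from 33 sets of symbols, with differences of 0.06 to 0.86. They belong to the 69 members higher without overlap (4.58%), a share below the 5.46% of all probesets. The largest listed Trim43a, Trim43b and Trim43c, of a tripartite-motif family known from early embryos, at 4.74, 4.79 and 5.22 in negative arrays and 5.33, 6.68 and 5.31 in positive arrays, a difference of 0.86 (SE 0.39). A probeset of Ttc30a1, Ttc30a2 and Ttc30b, genes of intraflagellar transport, was at 6.72, 6.51 and 6.92 against 7.32, 8.20 and 7.04, a difference of 0.81 (SE 0.31). In both, positive array 2 was the highest. Xlr3a, Xlr3b and Xlr3c, lymphocyte-regulated genes of the X chromosome, were at 6.27, 5.21 and 5.67 against 6.73, 6.15 and 6.30, a difference of 0.67 (SE 0.29) with 0.46, 0.93 and 0.62 in pairs 1 to 3, and here the groups overlapped. Khdc1a, Khdc1b and Khdc1c, a KH-domain family expressed in oocytes, also named after their values were seen, were lower in 1 of their 2 probesets, at 5.77, 5.47 and 5.69 against 5.13, 5.22 and 5.37, a difference of -0.40 (SE 0.13), while the other probeset differed by -0.09.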
